A study of Sus scrofa with 16 samples.

Results

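A list of 10 genes of the liver's blood-vessel wall was followed in the livers of pigs fed 3 fats. The genes were chosen by cell type from a list of symbols, 7 of them marking the endothelial cells that line the liver sinusoids (S1PR1, STAB1, STAB2, LYVE1, KDR, CDH5 and PECAM1) and 3 marking the stellate cells and pericytes beside them (RGS5, DCN and COL3A1). Of the 10, 9 were matched by symbol to a gene identifier among the 25880 genes of the count files, and STAB2 was not matched, so no value is given for it. S1PR1, LYVE1 and RGS5 were on the list because of their differences between these diets, so their diet values are given as a description, and where they are among the genes a fit calls, nothing is read from it. The other members were listed as partners of those genes in the same cells, and their differences between diets were tested.

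The liver of 16 crossbred fatteners, from (Polish Landrace × Polish Large White) sows and (Duroc × Pietrain) boars, was profiled by sequencing the 3′ ends of mRNA, 1 library per pig. The feeds had similar energy and protein and differed in the added fat, which was rapeseed oil (5 pigs, 3 gilts and 2 barrows), beef tallow (5 pigs, 2 gilts and 3 barrows) or coconut oil (6 pigs, 3 gilts and 3 barrows). Each pig had its own pen with straw, body weight went from about 60 kg at the start of the feeding to 118 kg at its end, and there was no group without added fat. The libraries held 705669 to 1767671 reads on genes (median 1018322), so a gene with few reads is known with the error of those few reads.

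The liver sinusoid is a capillary with a fenestrated endothelium that has scavenger receptors, such as STAB1 and STAB2, and the hyaluronan receptor LYVE1. KDR is the main receptor for vascular endothelial growth factor, CDH5 is the cadherin of endothelial junctions, and PECAM1 is an adhesion molecule that endothelial cells share with leukocytes and platelets. S1PR1 is the endothelial receptor for sphingosine-1-phosphate, a lipid carried in plasma by apolipoprotein M on high-density lipoprotein, and it signals through Gi proteins to keep the endothelial barrier tight. Stellate cells store vitamin A and lie between the endothelium and the hepatocytes, where they make matrix proteins such as the fibrillar collagen COL3A1 and the proteoglycan DCN. RGS5 is a marker of pericytes and shortens G protein signals by speeding GTP hydrolysis on Gi and Gq.

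Values are normalised counts, in reads per 1000000 reads on genes after TMM scaling of the libraries (CPM). A log2 fold change is that of the second diet named against the first, with its standard error (SE), and adjusted p-values are from the quasi-likelihood test of edgeR over all genes tested, with a threshold of 0.05. In whole liver, fewer cells of a type and less RNA per cell cannot be told apart. Hepatocyte markers had a summed level of 71713 to 197359 CPM over 13 markers in these livers. The endothelial members summed to 299 to 616 CPM, and all 6 had reads in every pig. The other endothelial list was read in every pig for 27 of its 41 matched genes, and EGFL7 was at 0 in all pigs.

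S1PR1 (ENSSSCG00000029849, on chromosome 4 from 117064632 to 117069724 of Sscrofa11.1 in RefSeq) had the lowest levels on rapeseed oil, with 105, 130, 139, 147 and 175 CPM. On beef tallow the pigs had 176, 208, 224, 299 and 367 CPM. On coconut oil the lowest pig had 164, the median was 226 and the highest pig had 369 CPM. Every beef tallow pig was above every rapeseed oil pig, though by a small margin at the edge (175.4 against 176.1 CPM), and 5 of 6 coconut oil pigs were above all rapeseed oil pigs. The mean was 139 ± 25.6 (SD, n = 5) on rapeseed oil, 255 ± 77.4 (SD, n = 5) on beef tallow and 245 ± 78.3 (SD, n = 6) on coconut oil. The log2 fold change was 0.87 (SE 0.21) on beef tallow and 0.82 (SE 0.21) on coconut oil against rapeseed oil, and -0.05 (SE 0.23) between beef tallow and coconut oil.

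LYVE1 (ENSSSCG00000029886, chromosome 2, 48937357 to 48954206), the hyaluronan receptor, had the same order of diets. The rapeseed oil pigs had 29.3, 29.4, 30.4, 30.9 and 43.4 CPM, and the beef tallow pigs 41.8, 58.1, 63.2, 67.0 and 70.7 CPM. The coconut oil pigs had a lowest value of 44.0, a median of 53.3 and a highest value of 91.6 CPM. All 6 coconut oil pigs and 4 of 5 beef tallow pigs were above all rapeseed oil pigs. The log2 fold change was 0.88 (SE 0.20) on beef tallow and 0.86 (SE 0.21) on coconut oil against rapeseed oil, and -0.02 (SE 0.21) between the other two diets. Against rapeseed oil, S1PR1 and LYVE1 thus had differences of similar size and the same sign. Between beef tallow and coconut oil, both differences were smaller than their SE. Both genes were listed for their diet differences, so this likeness is a description and is not tested. There were 4.35 ± 1.07 S1PR1 reads per LYVE1 read (SD, n = 5) on rapeseed oil. The ratio was 4.27 ± 1.04 (SD, n = 5) on beef tallow and 4.26 ± 1.32 (SD, n = 6) on coconut oil.

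RGS5 (ENSSSCG00000037821, chromosome 4, 87286953 to 87340816) lay the other way and rested on few reads. The rapeseed oil pigs had 9, 16, 18, 31 and 34 reads, or 8.70, 16.2, 13.0, 31.3 and 43.3 CPM in that order. The beef tallow pigs had 0, 1, 2, 9 and 12 reads, or 0, 0.753, 2.09, 9.40 and 7.74 CPM. The coconut oil pigs had between 0 and 14 reads, with a lowest value of 0, a median of 6.29 and a highest value of 9.10 CPM. A count of 0 allows up to 3.26 CPM in the beef tallow pig and up to 2.39 CPM in the coconut oil pig (3 reads in each library, counting error only). Below all rapeseed oil pigs were 4 of 5 beef tallow pigs and 5 of 6 coconut oil pigs. Mean levels were 22.5 ± 14.4 (SD, n = 5), 4.00 ± 4.28 (SD, n = 5) and 5.77 ± 3.14 CPM (SD, n = 6) on rapeseed oil, beef tallow and coconut oil, so that the beef tallow mean was 0.178 and the coconut oil mean 0.256 of the rapeseed oil mean. RGS5 was below the filter on low counts, and in the fit without that filter its log2 fold change was -2.38 (SE 0.45) on beef tallow and -1.93 (SE 0.38) on coconut oil against rapeseed oil.

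**Figure D1:**
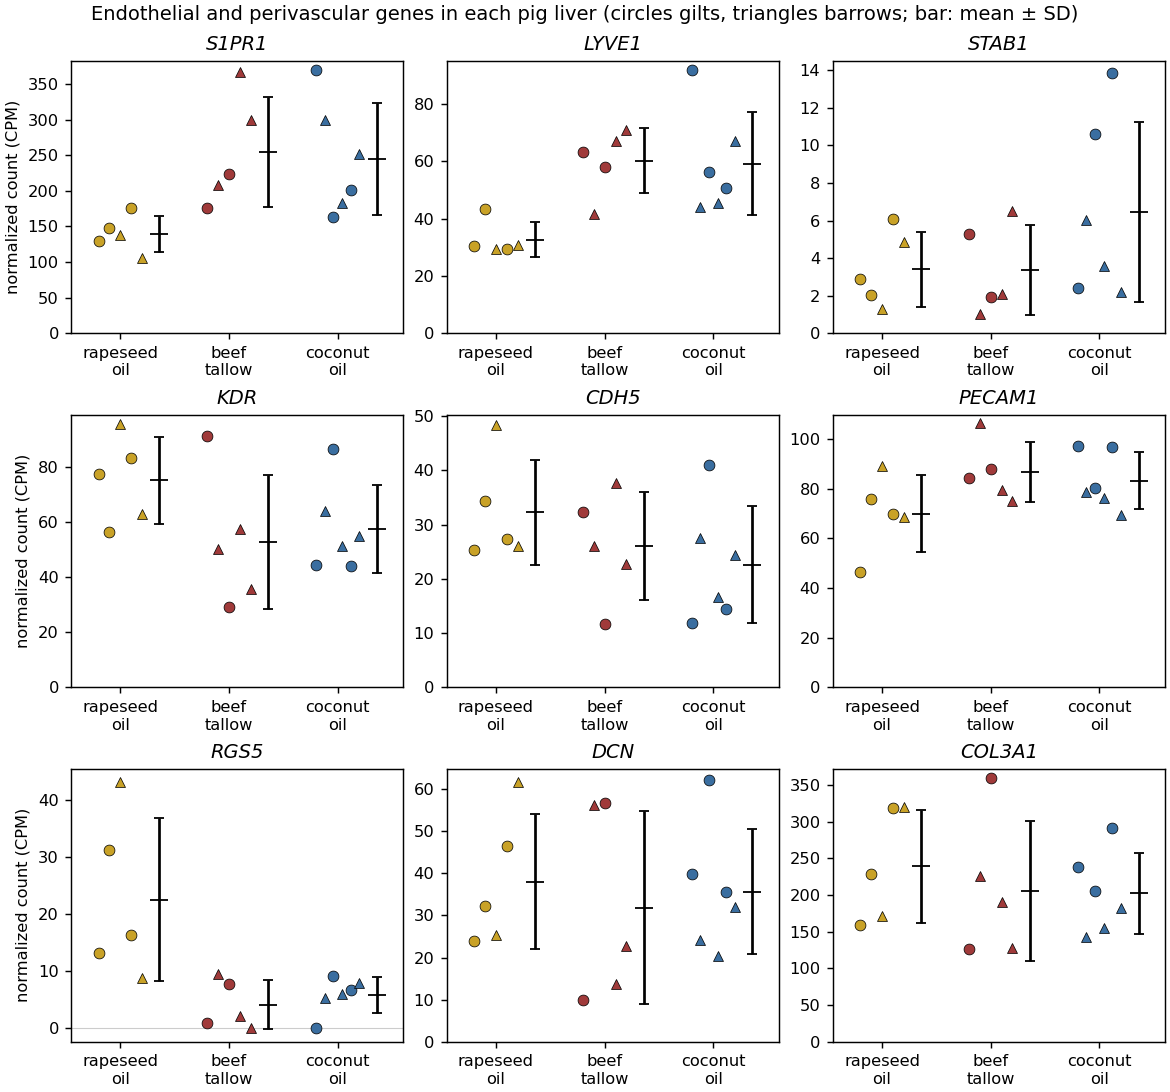
Normalised counts (CPM, linear axis) of the 9 matched genes in each of the 16 pigs, by diet, with circles for gilts, triangles for barrows, and the mean ± SD of each diet at the right of its points. S1PR1 and LYVE1 have their lowest means on rapeseed oil and RGS5 has its highest mean there. The points of RGS5 and of the other 6 genes overlap in every pair of diets. Only S1PR1 between rapeseed oil and beef tallow, and LYVE1 between rapeseed oil and coconut oil, do not overlap.

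The share of genes past the threshold gives the background for the members. Between rapeseed oil and beef tallow, edgeR called 70 of 6318 genes, or 1.11%. Between rapeseed oil and coconut oil it called 9 of 6528 genes (0.138%), and between beef tallow and coconut oil 4 of 6812 genes (0.0587%). Of the 9 matched members, 7 passed the filter on low counts in each pair of diets and were tested, and STAB1 and RGS5 were not. LYVE1 was called between rapeseed oil and beef tallow (it stayed called in 2 of the 10 fits that left out 1 pig), and no member was called in the other pairs. Since the list was drawn up with LYVE1, S1PR1 and RGS5 on it for these contrasts, nothing is read from that count or from those of the other tool. Of the other 5 tested members, at an unadjusted p under 0.05 edgeR gave 0 between rapeseed oil and beef tallow, 1 (KDR) between rapeseed oil and coconut oil, and 0 between beef tallow and coconut oil. Such counts between diets, here and for the lists below, stand without the share over all genes. They are a description, and nothing is read from them. DESeq2 called S1PR1, LYVE1 and RGS5 between rapeseed oil and beef tallow, where it called 3.24% of all genes. It called S1PR1 and LYVE1 between rapeseed oil and coconut oil, where it called 2.61% and gave RGS5 no adjusted p, and no member between beef tallow and coconut oil, where it called 2.46%. DESeq2 gave an adjusted p to 5808, 3565 and 2156 genes in these pairs. A gene without one, as for many list genes below, could not be called by it. Between beef tallow and coconut oil, KDR, CDH5 and DCN were among the genes without one. Groups that did not overlap were found for 4.57% of genes between rapeseed oil and beef tallow (S1PR1 among the members), 1.46% between rapeseed oil and coconut oil (LYVE1 among the members) and 1.44% between beef tallow and coconut oil (no member).

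KDR, CDH5 and PECAM1, the tested partners of S1PR1 and LYVE1 in the endothelium, had differences of mixed sign against rapeseed oil. None of these partners passed the threshold in any pair of diets. KDR (ENSSSCG00000008844, chromosome 8, 41809116 to 41856379) had 56.5, 62.8, 77.5, 83.1 and 95.4 CPM on rapeseed oil and 29.0, 35.9, 50.1, 57.5 and 91.1 CPM on beef tallow. On coconut oil it had a lowest value of 43.9, a median of 53.04 and a highest value of 86.4 CPM. The groups overlapped in every pair. Its log2 fold change against rapeseed oil was negative on beef tallow, at -0.50 (SE 0.27, edgeR adjusted p = 0.394), and on coconut oil, at -0.41 (SE 0.19, edgeR adjusted p = 0.385), and neither passed the threshold.

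CDH5 (ENSSSCG00000035772, chromosome 6, 27108560 to 27142145), the junctional cadherin, had 25.3, 26.1, 27.4, 34.3 and 48.4 CPM on rapeseed oil and 11.6, 22.8, 26.1, 32.4 and 37.7 CPM on beef tallow. On coconut oil it ran from 11.9 to 40.9 CPM with a median of 20.5 CPM. The log2 fold change against rapeseed oil was -0.31 (SE 0.29, edgeR adjusted p = 0.670) on beef tallow and -0.54 (SE 0.28, edgeR adjusted p = 0.433) on coconut oil, and the groups overlapped. PECAM1 (ENSSSCG00000017277, chromosome 12, 14667643 to 14723296) had 46.3, 68.6, 69.9, 75.7 and 89.1 CPM on rapeseed oil and 75.0, 79.5, 84.3, 87.7 and 106 CPM on beef tallow, and 69.2 to 97.2 CPM on coconut oil with a median of 79.4 CPM. Its log2 fold change was 0.32 (SE 0.19, edgeR adjusted p = 0.461) on beef tallow and 0.26 (SE 0.17, edgeR adjusted p = 0.565) on coconut oil. Of the 3 tested partners, KDR and CDH5 thus had negative and PECAM1 positive differences against rapeseed oil, and none passed the threshold.

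STAB1 (ENSSSCG00000011443, chromosome 13, 34630448 to 34659371), the scavenger receptor, had 1 to 23 reads per pig, too few to enter the test. Its level was 3.42 ± 2.00 CPM (SD, n = 5) on rapeseed oil, 3.37 ± 2.38 CPM (SD, n = 5) on beef tallow and 6.44 ± 4.79 CPM (SD, n = 6) on coconut oil, with overlapping groups, and a difference was not detectable at this depth. In the fit without the filter on low counts, its log2 fold change was -0.05 on beef tallow against rapeseed oil (edgeR adjusted p = 0.987). On coconut oil it was 0.86 against rapeseed oil (edgeR adjusted p = 0.607) and 0.93 against beef tallow (edgeR adjusted p = 0.589). In RefSeq, the span of STAB1 overlaps NT5DC2, that of PECAM1 overlaps LOC110255989 and that of S1PR1 overlaps LOC110260372. Whether counting used the strand is not given in the sources used here. Whether any counted read of STAB1, PECAM1 or S1PR1 came from an overlapping gene was not tested.

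Within a pig, the ratio of 2 endothelial genes does not depend on the depth of the library. There were 1.90 ± 0.460 S1PR1 reads per KDR read (SD, n = 5) on rapeseed oil, 5.70 ± 2.65 (SD, n = 5) on beef tallow and 4.60 ± 2.09 (SD, n = 6) on coconut oil. LYVE1 reads per KDR read were 0.463 ± 0.184, 1.33 ± 0.620 and 1.11 ± 0.519 in the same order of diets and numbers of pigs. Against PECAM1 the range was narrower, with 2.07 ± 0.567, 3.04 ± 1.20 and 2.96 ± 0.875 S1PR1 reads per PECAM1 read. These ratios carry the values that put S1PR1 and LYVE1 on the list and are not tested.

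DCN and COL3A1, the stellate cell partners of RGS5, had log2 fold changes no larger than their SE between rapeseed oil and beef tallow. DCN (ENSSSCG00000000915, chromosome 5, 91678601 to 91713925) had 23.9, 25.4, 32.3, 46.6 and 61.9 CPM on rapeseed oil, and 9.78, 13.6, 22.8, 56.4 and 56.8 CPM on beef tallow. On coconut oil it had a lowest value of 20.3, a median of 33.8 and a highest value of 62.1 CPM. The beef tallow pigs fell into a low group and a high pair, and all 3 diets overlapped. The log2 fold change against rapeseed oil was -0.24 (SE 0.43, edgeR adjusted p = 0.841) on beef tallow and -0.12 (SE 0.28, edgeR adjusted p = 0.907) on coconut oil.

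COL3A1 (ENSSSCG00000016034, chromosome 15, 93556914 to 93595678), a fibrillar collagen, had 159, 172, 228, 318 and 320 CPM on rapeseed oil and 126, 128, 190, 226 and 359 CPM on beef tallow. On coconut oil it ran from 143 to 291 CPM with a median of 194 CPM. The log2 fold change was -0.21 (SE 0.29, edgeR adjusted p = 0.781) on beef tallow and -0.24 (SE 0.22, edgeR adjusted p = 0.714) on coconut oil against rapeseed oil. There were 10.99 ± 8.94 RGS5 reads per 100 COL3A1 reads (SD, n = 5) on rapeseed oil, 1.60 ± 1.64 (SD, n = 5) on beef tallow and 3.07 ± 1.68 (SD, n = 6) on coconut oil. In the comparison of beef tallow with coconut oil, the log2 fold changes of the 7 tested members lay between -0.23 (CDH5) and 0.13 (DCN).

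**Figure D2:**
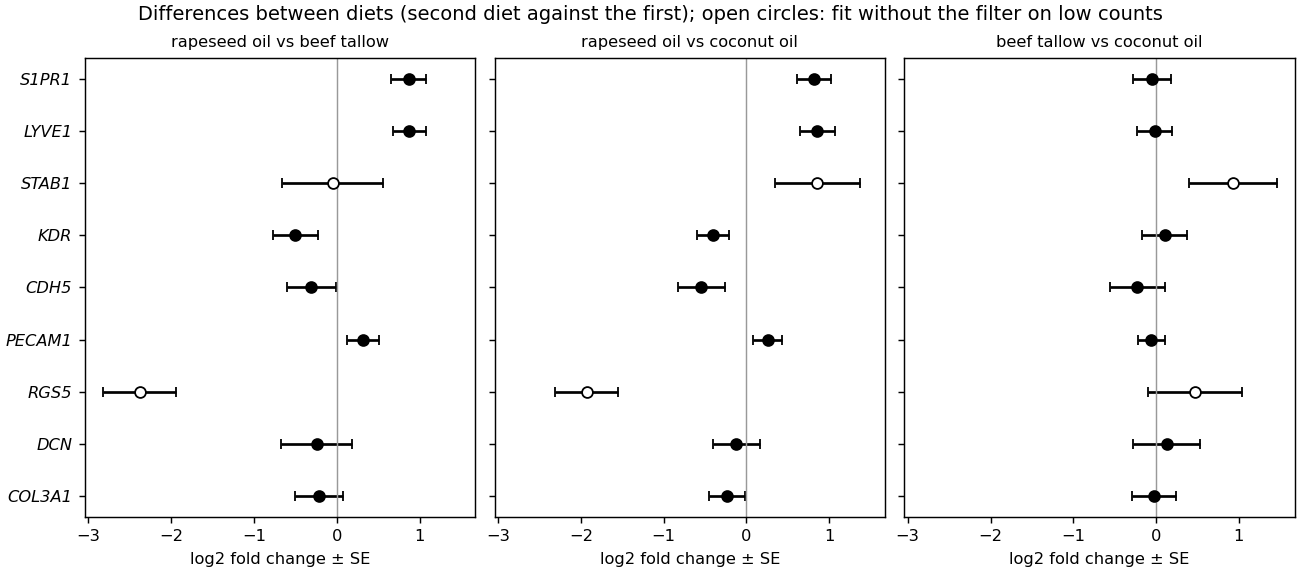
Log2 fold changes (points) with their SE (bars) of the 9 matched genes in the 3 pairs of diets, the second diet against the first, with open circles for STAB1 and RGS5, which were fitted without the filter on low counts. S1PR1 and LYVE1 are at 0.82 to 0.88 in both comparisons with rapeseed oil, KDR and CDH5 are between -0.54 and -0.31, and RGS5 is at -2.38 and -1.93. STAB1 is at -0.05 and 0.86 in the comparisons with rapeseed oil and at 0.93 between beef tallow and coconut oil.

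Whether S1PR1 and RGS5 followed their partners from pig to pig was asked within diets, which the choice of genes did not use. The mean of each diet was subtracted from the log2 level, and Pearson's r and Spearman's rho over the 16 pigs were tested by 100000 permutations of pigs within diets, two-sided, with adjustment over 7 relations. S1PR1 with LYVE1 had r = 0.47 (permutation p = 0.112, adjusted p = 0.692) and rho = 0.33 (permutation p = 0.264, adjusted p = 0.811). Without the 2 pigs farthest from the median of S1PR1 (coconut oil pig 1 and beef tallow pig 4), r was 0.17. Leaving out coconut oil pig 1 alone gave r = 0.23, and leaving out beef tallow pig 4 alone gave r = 0.45. The size of r thus depended mostly on coconut oil pig 1.

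S1PR1 had r = -0.25 with KDR (permutation p = 0.421, adjusted p = 0.692), r = -0.10 with CDH5 (permutation p = 0.758, adjusted p = 0.884) and r = -0.28 with STAB1 (permutation p = 0.351, adjusted p = 0.692). With PECAM1 it had r = -0.000422 (permutation p = 0.999, adjusted p = 0.999). The corresponding rho values were -0.16, -0.06, -0.24 and -0.07, with permutation p = 0.590, 0.833, 0.432 and 0.803 and adjusted p between 0.811 and 0.833. Without the 2 pigs farthest from the median, r was -0.29, -0.07, -0.10 and -0.11. RGS5 had r = 0.29 with DCN (permutation p = 0.347, adjusted p = 0.692), with rho = 0.32 (permutation p = 0.304, adjusted p = 0.811), and r = 0.44 without coconut oil pig 1 and beef tallow pig 5. With COL3A1 it had r = 0.21 (permutation p = 0.494, adjusted p = 0.692), with rho = 0.22 (permutation p = 0.463, adjusted p = 0.811), and r = 0.24 without those pigs. No relation of the 7 passed the threshold within diets. RGS5 had 0 to 34 reads and STAB1 1 to 23 reads per pig, so counting error limits what their relations can show. Pooled over diets, S1PR1 with LYVE1 had r = 0.77, a description only, since it includes the difference between diets for which both genes were listed.

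Among all pairs of members, 2 pairs stood out by the size of r, chosen after their values were seen and given as a description. KDR with CDH5 had r = 0.78 over 16 pigs within diets, and DCN with COL3A1 had r = 0.77. Rapeseed oil pig 3 had the highest level of both KDR and CDH5 in its diet, coconut oil pig 3 had the highest of both in its own, and beef tallow pig 3 had the lowest of both. The first 2 of these pigs had the fewest reads on genes in their diets (801172 and 705669), and beef tallow pig 3 the most (1490944). Within diets, log2 reads on genes had r = -0.25 with KDR, -0.47 with CDH5, -0.08 with DCN and 0.22 with COL3A1. The part of library depth in these pairs was not tested. Leaving out each pig in turn, r stayed between 0.70 and 0.84 for KDR with CDH5 and between 0.69 and 0.82 for DCN with COL3A1, with the lowest value of each pair without beef tallow pig 3. The pairs share libraries, and points are pigs. Over the 15 pairs of endothelial members the median r was -0.07 and 4 pairs were positive, and over the 18 pairs of an endothelial and a perivascular member it was -0.08 with 8 positive.

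LYVE1 with RGS5 had r = -0.53, which moved to -0.26 without coconut oil pig 1, a pig with the highest LYVE1 level and no RGS5 read. KDR and CDH5 had r = -0.50 and -0.52 with COL3A1, which moved to -0.30 for both without beef tallow pig 3.

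**Figure D3:**
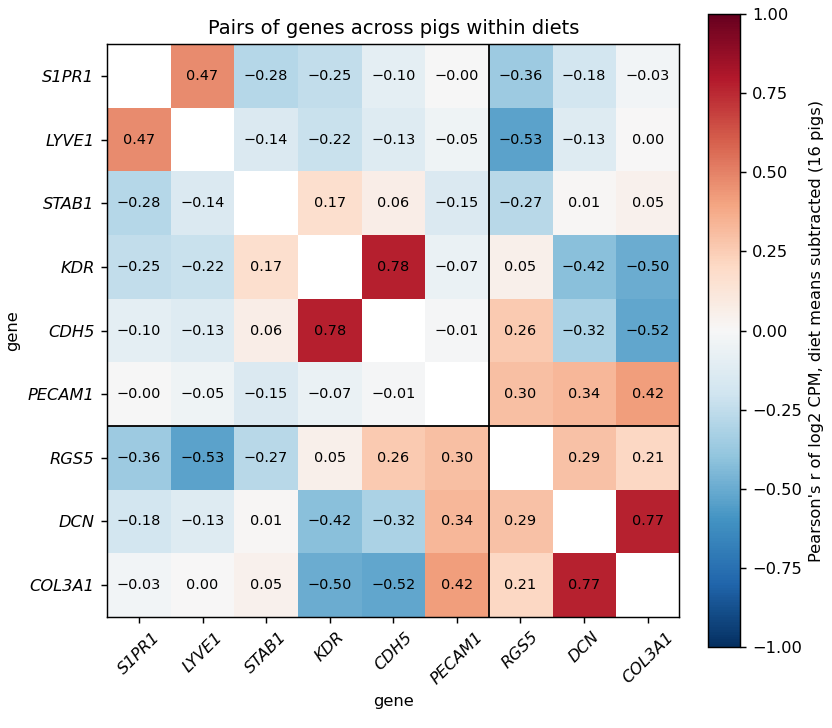
Pearson's r of log2 CPM over the 16 pigs, after subtracting the mean of each diet, for each pair of the 9 matched genes, with endothelial genes above and left of the black lines. KDR with CDH5 (0.78) and DCN with COL3A1 (0.77) are the darkest squares, and S1PR1 with LYVE1 is at 0.47.

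Among the genes most alike S1PR1 within diets, of 6048 genes with a symbol, were TOPBP1, MAPK1IP1L, MTMR10 and LNPK, with r between 0.80 and 0.86 over the 16 pigs. LYVE1 ranked 330 in that order, PECAM1 3137, CDH5 3888 and KDR 4907. For RGS5 the 5 genes most alike, of 6049, were ARSK, GJA4, ETFB, NHERF2 and DENND5A, with r between 0.76 and 0.85. GJA4 encodes connexin 37, a gap junction protein of vessels. PECAM1 ranked 810, DCN 834, CDH5 989 and COL3A1 1294 for RGS5. The genes with the highest r of so many are high by selection, and these names are a description.

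The wider vessel-wall lists gave the other genes of these cells. Of 46 other endothelial genes, 41 were matched, and 21, 22 and 23 were tested between rapeseed oil and beef tallow, rapeseed oil and coconut oil, and beef tallow and coconut oil. EdgeR called 0 of them in each pair. At an unadjusted p under 0.05, 3 were higher and 1 was lower on beef tallow than on rapeseed oil, 4 were higher and 2 lower on coconut oil than on rapeseed oil, and 1 was higher and 1 lower on coconut oil than on beef tallow. Their median log2 fold changes were 0.05, 0.14 and 0.03, beside medians of 0.011, -0.0011 and -0.0045 over all genes tested. The summed level of the list ran from 827 to 1191 CPM on rapeseed oil, 884 to 1153 CPM on beef tallow and 925 to 1169 CPM on coconut oil.

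MRC1, the mannose receptor of sinusoidal endothelium and macrophages, CLEC14A, a lectin of endothelial cells, CTSL, the lysosomal protease cathepsin L, and PALMD, palmdelphin, are named after their values were seen. MRC1 had a log2 fold change of 0.55 (SE 0.18, edgeR adjusted p = 0.150) on beef tallow and 0.55 (SE 0.17, edgeR adjusted p = 0.169) on coconut oil against rapeseed oil, and it was the gene of this list that DESeq2 called, between rapeseed oil and coconut oil. CLEC14A had 0.70 (SE 0.23, edgeR adjusted p = 0.144) and 0.72 (SE 0.23, edgeR adjusted p = 0.195). The other way, CTSL had -0.62 (SE 0.26, edgeR adjusted p = 0.265) and -0.54 (SE 0.19, edgeR adjusted p = 0.255), and PALMD had -0.52 (SE 0.31, edgeR adjusted p = 0.437) and -0.80 (SE 0.30, edgeR adjusted p = 0.269). FLT1, the decoy-like receptor of vascular endothelial growth factor, had 0.05 (SE 0.35, edgeR adjusted p = 0.966) and 0.32 (SE 0.27, edgeR adjusted p = 0.686). All 5 genes missed the edgeR threshold in both comparisons.

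Of 52 other stellate, pericyte and matrix genes, 48 were matched and 29, 32 and 33 were tested in the same order of pairs, and edgeR called 0 in each. At an unadjusted p under 0.05 there were 3 higher and 1 lower, 2 higher and 1 lower, and 0, and DESeq2 called 0, 1 (CALD1, caldesmon, higher on coconut oil than on rapeseed oil) and 0. The median log2 fold changes were 0.01, 0.11 and 0.11. ACTA2, the smooth muscle actin of activated stellate cells and vessel walls, had 1.42 (SE 0.55, edgeR adjusted p = 0.224) on beef tallow and 0.93 (SE 0.39, edgeR adjusted p = 0.315) on coconut oil against rapeseed oil, with beef tallow pigs between 12.0 and 129 CPM. PDGFRB, the receptor for platelet-derived growth factor on mural cells, had -0.26 (SE 0.26, edgeR adjusted p = 0.689) and -0.09 (SE 0.24, edgeR adjusted p = 0.923). COL1A1, the chain of type I collagen, had -0.01 (SE 0.50, edgeR adjusted p = 0.998) and -0.34 (SE 0.43, edgeR adjusted p = 0.807).

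**Figure D4:**
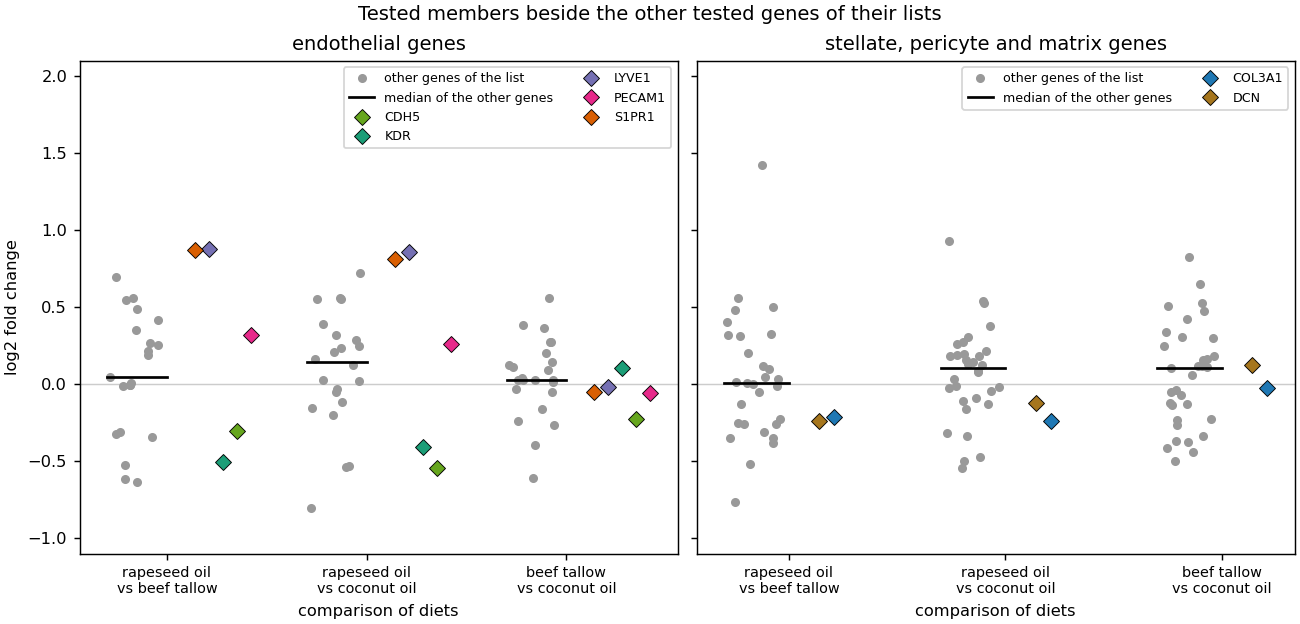
Log2 fold changes of the tested members (coloured diamonds) beside those of the other tested genes of the endothelial list (left) and of the stellate, pericyte and matrix list (right) in the 3 pairs of diets, with a black line at the median of the other genes. S1PR1 and LYVE1 (0.82 to 0.88) lie above all other tested endothelial genes in both comparisons with rapeseed oil, and the other genes have medians of 0.05 and 0.14. Both were listed for these differences, so their place above the others is a description. The next gene, CLEC14A, is at 0.70 (SE 0.23) and 0.72 (SE 0.23).

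The route of sphingosine-1-phosphate, the ligand of S1PR1, was covered by 34 listed genes, all matched, of which 18, 20 and 20 were tested in the same order of pairs. EdgeR called 0 in each pair, with 0 higher and 3 lower, 1 higher and 1 lower, and 4 higher and 1 lower at an unadjusted p under 0.05, and DESeq2 called 1 (ORAI3), 0 and 0. Among the other receptors, S1PR5 had reads in all 16 pigs, with 6.92 ± 4.08 CPM (SD, n = 5) on rapeseed oil, 6.56 ± 2.86 CPM (SD, n = 5) on beef tallow and 7.71 ± 2.68 CPM (SD, n = 6) on coconut oil. S1PR2 and S1PR3 stayed at or below 6.52 CPM in every pig, and S1PR4 had no read in any pig. The exporter SPNS2 had no read either, which over 18234951 reads allows up to 0.164 CPM (3 reads over all libraries). SPHK1, a kinase that makes the ligand, had reads in 1 pig, while SPHK2 had a log2 fold change of 0.08 (SE 0.26, edgeR adjusted p = 0.926) on beef tallow and 0.36 (SE 0.25, edgeR adjusted p = 0.565) on coconut oil against rapeseed oil.

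SGPL1, the lyase that degrades the ligand, had a log2 fold change of 0.29 (SE 0.24, edgeR adjusted p = 0.602) on beef tallow and 0.74 (SE 0.23, edgeR adjusted p = 0.182) on coconut oil against rapeseed oil. APOM, the plasma carrier made by hepatocytes, had -0.07 (SE 0.23, edgeR adjusted p = 0.925) and -0.33 (SE 0.19, edgeR adjusted p = 0.471). ORAI3, a calcium channel subunit that the study also lists for these diets, had levels of 45.5 ± 20.4 CPM (SD, n = 5) on rapeseed oil, 22.7 ± 4.77 CPM (SD, n = 5) on beef tallow and 40.5 ± 11.6 CPM (SD, n = 6) on coconut oil. Its log2 fold change was -1.04 (SE 0.28) on beef tallow and -0.20 (SE 0.26) on coconut oil against rapeseed oil.

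For the RGS family and its G proteins, 19 of 23 genes were matched and 6, 5 and 5 were tested. EdgeR and DESeq2 called 0 in each pair, with 0 higher and 1 lower, 1 higher and 0 lower, and 1 higher and 0 lower by edgeR at an unadjusted p under 0.05. Between beef tallow and coconut oil, DESeq2 gave none of the 5 tested genes an adjusted p, so it could not call them. For the ligands and receptors of vascular endothelial growth factor, of which KDR is a receptor, 7 of 9 genes were matched, 4 were tested in each pair, and both tools called 0, with 0 by edgeR at an unadjusted p under 0.05. In the pairs with coconut oil, DESeq2 gave an adjusted p to VEGFA only of these 4. VEGFA, the ligand, had a log2 fold change of 0.38 (SE 0.33, edgeR adjusted p = 0.626) on beef tallow and 0.01 (SE 0.17, edgeR adjusted p = 0.987) on coconut oil against rapeseed oil.

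Markers of other liver cells that share LYVE1 and PECAM1, or surround them, were read beside these values. Of 15 Kupffer cell and macrophage markers, 14 were matched and 12 had reads in every pig, and their summed level was 1051 to 1705 CPM on rapeseed oil, 1392 to 2361 CPM on beef tallow and 1157 to 1472 CPM on coconut oil. Of the 12 tested, 1 was called between rapeseed oil and beef tallow, CD163, the haemoglobin scavenger receptor of macrophages, with a log2 fold change of 0.79 (SE 0.17, edgeR adjusted p = 0.0414), and between rapeseed oil and coconut oil it had 0.29 (SE 0.17, edgeR adjusted p = 0.477). On beef tallow, 9 of the 12 had positive and 3 negative log2 fold changes against rapeseed oil (median 0.24), with 2 higher and 0 lower at an unadjusted p under 0.05. On coconut oil, 9 of the 12 had negative log2 fold changes against rapeseed oil, with 1 higher and 2 lower at an unadjusted p under 0.05, and 9 of 12 against beef tallow, with 0 higher and 5 lower, and edgeR called 0 in both pairs. DESeq2 called CD163 between rapeseed oil and beef tallow, C1QA and MRC1 between rapeseed oil and coconut oil, and C1QA between beef tallow and coconut oil. C1QA, a chain of complement C1q, had log2 fold changes of -0.65 (SE 0.19, edgeR adjusted p = 0.145) and -0.80 (SE 0.22, edgeR adjusted p = 0.210) on coconut oil against rapeseed oil and beef tallow.

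Of 13 hepatocyte markers 12 were tested, 6 with positive and 6 with negative log2 fold changes between rapeseed oil and beef tallow. EdgeR called TTR, transthyretin, in that pair, with -0.78 (SE 0.17, edgeR adjusted p = 0.0426), and CPS1, the first enzyme of the urea cycle, had 0.83 (SE 0.20, edgeR adjusted p = 0.0627). DESeq2 called TTR and CPS1 in that pair and between beef tallow and coconut oil, where edgeR called 0 with 1 higher and 1 lower at an unadjusted p under 0.05. Between rapeseed oil and coconut oil both tools called 0, with 0 higher and 2 lower by edgeR at an unadjusted p under 0.05. Smooth muscle markers summed to 44.9 to 61.8, 38.1 to 181 and 51.5 to 124 CPM on rapeseed oil, beef tallow and coconut oil, with 0 of 3 tested genes called by either tool in any pair and ACTA2 at an unadjusted p under 0.05 by edgeR in both pairs with rapeseed oil. In the pairs with coconut oil, DESeq2 gave none of these 3 genes an adjusted p, so it could not call them. Platelet and red cell markers summed to 498 to 4456, 1565 to 2830 and 1231 to 4842 CPM, with 0 of 2 tested genes called by either tool and 0 at an unadjusted p under 0.05. Bile duct, T and NK cell, and B and plasma cell markers had at most 2 tested genes each, with 0 called by edgeR or DESeq2 in any pair and 1 at an unadjusted p under 0.05 by edgeR. DESeq2 gave no adjusted p to these tested genes in the pairs with coconut oil. The part of these cells in the levels of LYVE1, S1PR1 and RGS5 was not tested.

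Library measures also varied between diets. The share of reads with several alignments had a median of 26.5% on rapeseed oil, 22.2% on beef tallow and 19.8% on coconut oil, with overlapping ranges of 21.9 to 32.5%, 19.3 to 33.2% and 15.4 to 38.1%. Within diets over the 16 pigs, this share had r = -0.37 with S1PR1, r = -0.15 with LYVE1 and r = 0.42 with RGS5, as a description, and its part in the diet values was not tested. Beef tallow pig 3 stood apart from its diet, with a root mean square deviation of 0.646 on the log2 scale over genes against 0.328 to 0.479 in the other pigs. Without it, the log2 fold change between rapeseed oil and beef tallow was 0.91 for S1PR1 and 0.89 for LYVE1.

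Sex was a comparison the choice of genes did not use. Between 8 gilts and 8 barrows, with diet as a term, edgeR called 5 of 6365 genes (0.0786%) and 0 of the 7 tested members, with 0 members at an unadjusted p under 0.05 and 0 by DESeq2. The largest difference among the 7 was that of COL3A1, with a log2 fold change of -0.35 in barrows against gilts (SE 0.21, edgeR adjusted p = 0.914), and S1PR1 had 0.07 (SE 0.19, edgeR adjusted p = 0.982) and LYVE1 -0.20 (SE 0.17, edgeR adjusted p = 0.924). RGS5, in the fit without the filter, had 0.23 (SE 0.32, edgeR adjusted p = 0.912). The interaction of diet and sex was called for 0% of genes in each of the 3 pairs of diets, with 250, 260 and 240 genes at an unadjusted p under 0.05, and for no member. S1PR1 had an interaction of 0.85 (SE 0.40, edgeR adjusted p = 0.999) between rapeseed oil and beef tallow, the difference being larger in barrows. With 2 or 3 pigs per diet and sex, this fit says little about members that did not pass.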

How the data were processed

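Liver mRNA of 16 pigs was measured by 3′ end sequencing. According to the study's methods, the authors trimmed the reads, mapped them with TopHat to the Sus scrofa 11.1 genome and made the deposited values with HTSeq-count, as raw counts of reads per Ensembl gene without normalization. The methods name FastQC for quality control and DESeq2 for the authors' own comparisons. The lists from those comparisons entered the choice of genes, and the values here were computed from the counts. The DESeq2 fits made here called as many genes per pair of diets as the paper reports (188, 93 and 53). They are thus not a check separate from the study's own. The 5 tallies of reads assigned to no gene were left out of library sizes, and reads with several alignments are not counted per gene, so genes with near copies are under-counted. The 3′ kit named in the labels makes about 1 read per transcript, and levels were compared between pigs only. Where labels and methods name the RNA kit they differ, and the labels do not say whether pigs were processed in batches.

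Groups came from the sample titles. Each pair of diets was fitted over all genes with edgeR 4.0.16 in R 4.3.3 (quasi-likelihood test, TMM, filterByExpr with a minimum count of 10 and total of 15, no covariates, Benjamini-Hochberg adjustment over the genes tested, threshold 0.05). The SE is the size of the log2 fold change divided by the square root of F. DESeq2 1.42.0 was an alternative, as were RLE factors, a fit without the filter, all 16 pigs in 1 fit, a term for sex, a block for the replicate number and fits that each left out 1 pig. Same-numbered pigs of different diets correlated between -0.25 and 0.14 over 15 pairs, so the numbers do not pair pigs. Relations used log2 CPM with a prior count of 2. No pair of the 120 pairs of libraries was identical. Scripts were tested on simulated data.

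Symbols came from a gene table that names 14857 of the genes, and positions from RefSeq (Sscrofa11.1). The members and lists were chosen with earlier results of these data known. The genes named are the members, list genes past the threshold, 13 genes fixed for their roles, the 5 genes most alike S1PR1 and RGS5 (1 of them is not reported here), and others said to be named after their values were seen.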

Additional observations from a re-analysis of the deposited data

Results flagged for a closer look

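Within each diet, the level of each matched gene and 7 ratios between genes were searched for a pig far from the others, by the gap to the nearest pig as a share of the diet's range (Dixon's 95% limit). Of 48 such groups, 3 held a pig past the limit, and chance alone gives about 1 in 20. LYVE1 on rapeseed oil was 43.4 CPM in pig 2, against 30.9 CPM in the next pig, and without that pig the log2 fold change of LYVE1 was 1.00 on beef tallow and 0.98 on coconut oil. On coconut oil, pig 1 had 30.9 S1PR1 reads per CDH5 read, against 13.9 in the next pig, with 463 S1PR1 and 15 CDH5 reads. On coconut oil, pig 2 had 6.80 S1PR1 reads per LYVE1 read, against 4.05 in the next pig, with 347 and 51 reads. No interaction of diet and sex passed the threshold for a member. Each of these values comes from 1 library, and no cause was tested.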

How the results depend on the processing

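Of 363 values of the members' log2 fold changes under an alternative, 347 kept their direction and side of the threshold, or moved by less than the SD between pigs for S1PR1, LYVE1, RGS5 and STAB1. The other 16 changed sign, all of them in the members judged by direction and for differences within their SE. Sign changes of S1PR1 and LYVE1 are not in that count. S1PR1, LYVE1, RGS5 and STAB1 were judged by size alone, so a call lost or gained in them counts among the 347. Between beef tallow and coconut oil, leaving out 1 pig moved S1PR1 to between -0.20 and 0.12 and LYVE1 to between -0.19 and 0.058. Between rapeseed oil and beef tallow, DCN ran from -0.60 to 0.0086 leaving out 1 pig (0.0043 without beef tallow pig 1), and between rapeseed oil and coconut oil from -0.30 to 0.12 (without coconut oil pig 3 and rapeseed oil pig 5). Others kept their sign over a wide range, and none passed the edgeR threshold in these fits. On beef tallow against rapeseed oil, KDR ran from -0.81 to -0.33 (without beef tallow pigs 1 and 3), CDH5 from -0.47 to -0.09 (without beef tallow pigs 4 and 3), COL3A1 from -0.52 to -0.07 (without beef tallow pigs 3 and 1) and PECAM1 from 0.20 to 0.42 (without rapeseed oil pigs 1 and 3). On coconut oil against rapeseed oil, COL3A1 ran from -0.37 to -0.12 (without coconut oil pig 5 and rapeseed oil pig 5), CDH5 from -0.74 to -0.37 (without coconut oil pig 3 and rapeseed oil pig 3) and PECAM1 from 0.14 to 0.35 (without rapeseed oil pigs 1 and 3). Between beef tallow and coconut oil, leaving out 1 pig moved KDR to between -0.069 and 0.41, PECAM1 to between -0.11 and 0.024, DCN to between -0.12 and 0.48 and COL3A1 to between -0.16 and 0.28, and COL3A1 was 0.068 with the replicate block.

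The genes called between rapeseed oil and beef tallow were 188 by DESeq2, 190 without the filter and 35 with the replicate block, and 9 to 149 leaving out 1 pig (9 without rapeseed oil pig 5, 149 without beef tallow pig 3). Between rapeseed oil and coconut oil they were 93 by DESeq2, 82 without the filter, 7 with the block and 3 to 27 leaving out 1 pig. Between beef tallow and coconut oil they were 53, 22, 8 with all 16 pigs in 1 fit, and 4 to 9. Between the sexes, DESeq2 called 11 genes and the fit without the filter 41.

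The members called between rapeseed oil and beef tallow were 3 by DESeq2 and without the filter (S1PR1, LYVE1 and RGS5), 0 with RLE factors, with sex as a covariate and with the replicate block, and 0 to 3 leaving out 1 pig. Between rapeseed oil and coconut oil, DESeq2 called 2 and the fit without the filter 3. Leaving out 1 pig, the log2 fold change of S1PR1 was 0.70 to 0.98 on beef tallow and 0.66 to 0.91 on coconut oil against rapeseed oil.

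The relation of S1PR1 with LYVE1 had r = 0.77 pooled over diets, 0.59 with the replicate block and 0.23 to 0.63 leaving out 1 pig. That of S1PR1 with PECAM1 was 0.0049 with RLE factors, 0.00011 with a prior count of 0.5, 0.38 pooled, 0.15 with the mean of each diet and sex subtracted, 0.13 with the block and -0.17 to 0.081 leaving out 1 pig. S1PR1 with CDH5 ran from -0.30 to 0.14 leaving out 1 pig, and RGS5 with DCN was -0.047 with the block. The replicate numbers do not pair the pigs (4 of 16 pigs correlated best with their own number), and the block changed no other member call. At this depth STAB1 passed the filter in no fit of a pair of diets, and RGS5 passed it only in some fits that left out 1 pig. Against rapeseed oil, these gave RGS5 a log2 fold change of -2.85 to -2.08 on beef tallow (6 fits) and -2.14 on coconut oil (1 fit). The cause of these changes was not tested.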

Other observations

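A few other genes of these cells and of the signalling around them are given by value, named after their values were seen. LRAT, which esterifies vitamin A in stellate cells, was 20.4 ± 3.13 CPM (SD, n = 5) on rapeseed oil, 12.0 ± 4.25 CPM (SD, n = 5) on beef tallow and 14.9 ± 3.53 CPM (SD, n = 6) on coconut oil, with a log2 fold change of -0.77 (SE 0.28, edgeR adjusted p = 0.192) on beef tallow. RGS16, another regulator of G protein signalling, was 35.4 ± 16.3, 14.3 ± 11.2 and 27.0 ± 15.4 CPM in the same groups, with a log2 fold change of -1.35 (SE 0.44, edgeR adjusted p = 0.142) on beef tallow. RGS4, which is close to RGS5 in the family, was 5.65 ± 2.77, 3.02 ± 1.96 and 4.01 ± 1.89 CPM and was below the filter on low counts. ERG, a transcription factor of endothelial cells, was 33.6 ± 9.82, 33.4 ± 7.78 and 48.9 ± 8.01 CPM, with a log2 fold change of 0.56 (SE 0.20, edgeR adjusted p = 0.269) on coconut oil against rapeseed oil. CLEC4G, a lectin of the sinusoidal endothelium, was 155 ± 46.7, 206 ± 21.1 and 157 ± 27.9 CPM, with a log2 fold change of -0.39 (SE 0.16, edgeR adjusted p = 0.376) on coconut oil against beef tallow. None of these passed the threshold.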
